A study of Homo sapiens with 18 samples.

Results

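The mitosis and spindle genes are 42 genes whose products drive a cell from late G2 through mitosis to the separation of the daughter cells. They were taken by symbol from a fixed list, and each of the 42 was found once in each of the 3 deposited tables, which list 16001 genes for BL-41, 15365 for Namalwa and 16787 for Jiyoye. The tables came from a study of what loss of FOXO3, a forkhead transcription factor, does to 3 established lines of Burkitt lymphoma, a fast-dividing B cell tumour driven by MYC. Each line (BL-41, Namalwa and Jiyoye) was infected with a lentivirus that carries a hairpin RNA (shRNA) directed at FOXO3 or a scrambled one, in the pRSI12-U6-shUbiC-TagRFP vector, so that both arms of each line carried the vector and its TagRFP gene. Infected cells were sorted on day 4. Namalwa and Jiyoye carry Epstein-Barr virus and BL-41 does not. Each of the 6 groups held 3 libraries, called triplicates in the labels, which do not say that they were separate cultures, so p-values reflect only how these libraries vary, which may be technical. Every infected group is a bulk population, and with bulk RNA a change in the share of cells that are in mitosis and a change in RNA per cell cannot be told apart.

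Mitotic entry needs cyclin B bound to CDK1, which the CDC25 phosphatases switch on. Polo and Aurora kinases then build the spindle, the kinetochore ties chromosomes to its microtubules, and the spindle checkpoint holds back the anaphase-promoting complex (APC/C), a ubiquitin ligase, until every chromosome is attached. Most of these genes are transcribed late in the cell cycle under the MuvB complex with B-MYB and FOXM1, which act through a promoter element called CHR, and their messages are abundant in dividing germinal centre B cells and in Burkitt lymphoma. FOXO factors are known as brakes on the cell cycle that AKT keeps out of the nucleus.

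The deposited tables give 1 normalized value per arm and no value per library, so each gene below has a value with scrambled shRNA and a value with FOXO3 shRNA, and no SD. The fold change, given as log2, sets the FOXO3 shRNA arm over the scrambled arm and was moderated towards 0 by the authors, and its standard error (SE) was recovered from the fold change and its p. A gene is called, and said to rise or fall, at an adjusted p under 0.05 in the authors' DESeq2 test over all genes of that line. In the authors' deposited table FOXO3 itself stood at 944.5 and 544.7 in BL-41, at 850.5 and 398.4 in Namalwa, and at 471.2 and 384.0 in Jiyoye, and it was called in BL-41 and Namalwa but not in Jiyoye (adjusted p = 0.187, DESeq2). The fall of the target was thus not shown in Jiyoye. B cell markers were present in each line, with scrambled sums over 8 genes of 64863 (BL-41), 42509 (Namalwa) and 12341 (Jiyoye). Of these, CD79B, MME and CD22 fell in BL-41 and CD79A and CD79B rose in Jiyoye. The summed value of 4 T cell markers was at most 76.2 in any arm. In BL-41 the 7 myeloid markers summed to 183.9 with scrambled and 346.0 with FOXO3 shRNA, and LYZ, CD14 and CD68 rose. In Jiyoye CD14 rose. Their part in the results was not tested.

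All 42 members were well expressed in every line, with a mean of both arms of at least 100. Levels were compared between genes as the value per kilobase of gene length, scaled to the same sum in each table. With scrambled shRNA the members ran from 14.4 to 412 in BL-41, with a median of 79.2, from 12.3 to 321 in Namalwa, with a median of 86.3, and from 15.5 to 426 in Jiyoye, with a median of 73.0. The median over all genes on this scale was 11.1, 12.9 and 10.4 in these lines, and the median member stood at percentile 89.0, 87.8 and 88.5. PTTG1, the securin that restrains separase until anaphase, had the highest level per kilobase in BL-41 (412) and Jiyoye (426), and UBE2C, the ubiquitin-conjugating enzyme of the APC/C, had it in Namalwa (321). PTTG1 has near-identical copies elsewhere in the genome that can share reads, so its value is uncertain. The lowest levels per kilobase were those of CENPE, a kinetochore motor, in BL-41 (14.4), of CDC25C, a phosphatase of CDK1, in Namalwa (12.3), and of ESPL1, the separase, in Jiyoye (15.5). BUB1, a kinase of the spindle checkpoint, ranked 2 of 42 in Jiyoye at 262 per kilobase and stood at 101 in BL-41 and 145 in Namalwa. The tables were normalized separately, so these levels were not tested between lines.

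**Figure D1:**
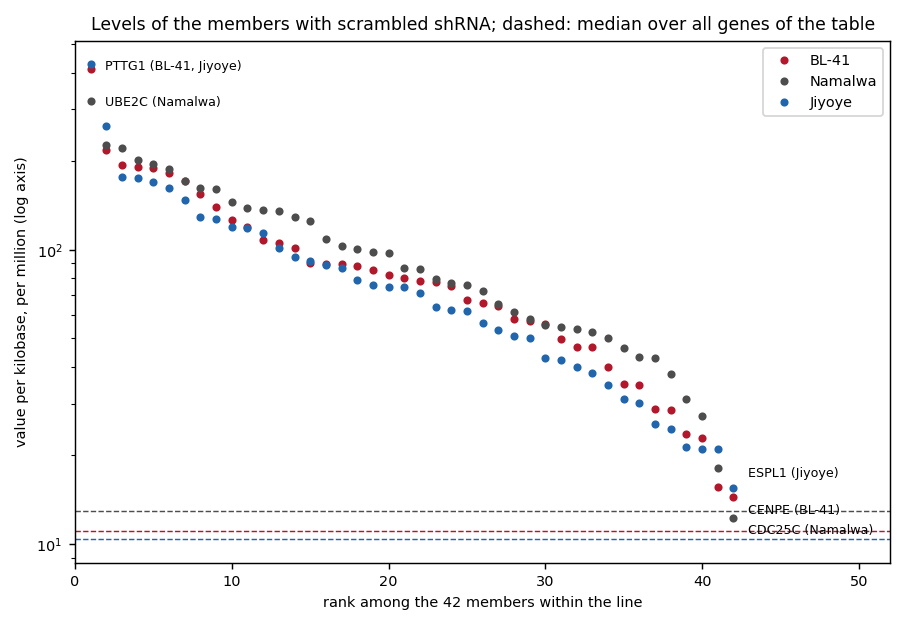
Levels of the 42 members with scrambled shRNA, ranked within each line (x axis) and given as the value per kilobase of gene length, scaled to the same sum in each table (y axis, log scale); each point is 1 gene and dashed lines mark the median over all genes of the table. Almost all members lie above the dashed line of their line, the exception being CDC25C in Namalwa (12.3 against 12.9).

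FOXO3 shRNA split the mitosis and spindle genes in BL-41 and in Jiyoye and moved a single one past the test in Namalwa. In BL-41, 7 members rose, 10 fell and 25 were not called. INCENP, CDCA5, CDC20, ECT2, TTK, BIRC5 and CCNB1 rose. CDC25C, KIF11, TPX2, HMMR, CDK1, MKI67, BUB1B, CENPE, NUF2 and AURKB fell. In Jiyoye, TTK, CDC20 and ECT2 rose, CDC25C, KIF11, TPX2, HMMR and KIF4A fell, and 34 were not called. In Namalwa CDCA5 rose and 41 were not called.

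These shares were not large beside the rest of the transcriptome. The 17 called members of BL-41 are 40.5% of the 42, where 28.7% of all genes were called (14.5% rose and 14.2% fell) and 40.7% of those whose mean reached 100. The 8 called members of Jiyoye are 19.0%, against 17.4% of all genes (8.69% rose and 8.70% fell) and 25.5% of those whose mean reached 100. The 1 called member of Namalwa is 2.38%, against 6.41% of all genes (2.60% rose and 3.81% fell) and 9.61% of those whose mean reached 100. No member was called as falling in Namalwa by DESeq2, where 10 members below 0 and 2 above 0 had an unadjusted p under 0.05. The 42 members had a median log2 fold change of -0.01 (BL-41), -0.14 (Namalwa) and -0.07 (Jiyoye), and the median over all genes was 0.02, 0.00 and 0.01. Below 0 lay 22 BL-41 members, 34 Namalwa members and 26 Jiyoye members, or 52.4%, 81.0% and 61.9% of them, against 47.3%, 50.3% and 48.3% of all genes. The Namalwa members therefore lay mostly below 0, with a median smaller than the size that could be called. At the median SE of the members (0.12 for BL-41, 0.11 for Namalwa and 0.13 for Jiyoye), a log2 fold change of about 0.30, 0.33 and 0.34 was needed for a call.

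**Figure D2:**
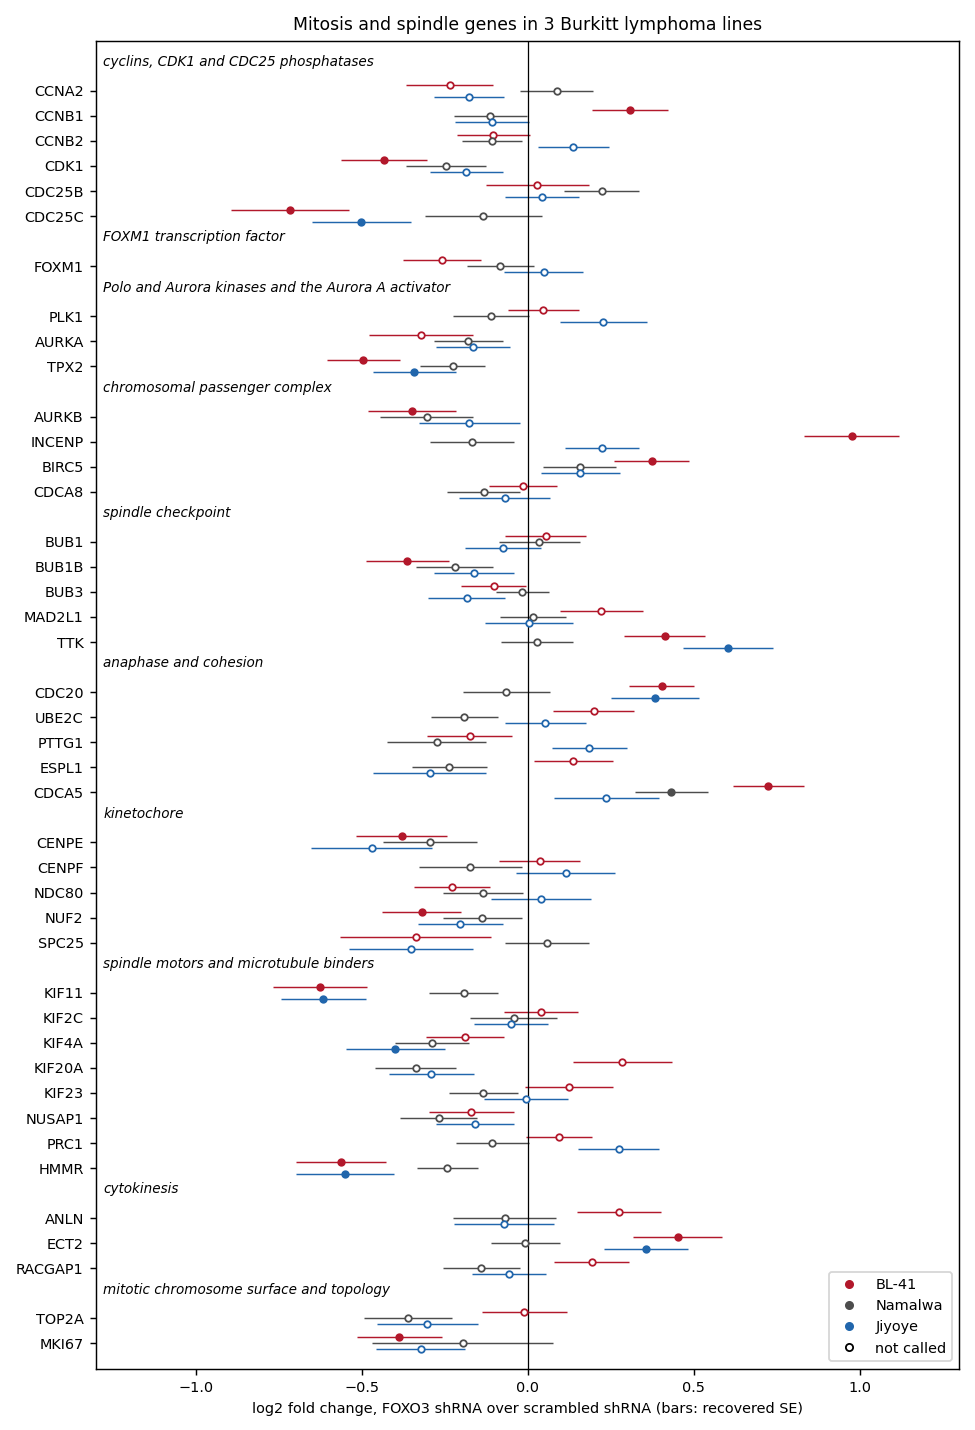
Log2 fold change of each of the 42 members with FOXO3 shRNA over scrambled shRNA (x axis), grouped by role, in BL-41 (red), Namalwa (grey) and Jiyoye (blue); bars are the recovered SE and open points were not called. INCENP in BL-41 (0.98) lies farthest from 0, and 34 of 42 Namalwa points lie to the left of 0.

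BL-41 and Jiyoye shared 7 calls with the same direction and none with opposite directions. CDC20, TTK and ECT2 rose in both, and CDC25C, KIF11, TPX2 and HMMR fell in both. These 7 are 41.2% of the calls in BL-41 and 87.5% of those in Jiyoye. Shared calls were not counted over all genes, so this overlap is not shown to be particular to the members. KIF4A is the Jiyoye call that BL-41 lacked. BL-41 and Namalwa shared CDCA5, which is 5.88% of the calls in BL-41 and the only call in Namalwa. The lines share no library, but FOXO3 was targeted in the same vector in each. Over the 42 members, the fold changes of BL-41 and Jiyoye had a Pearson correlation of 0.71 (Spearman 0.71), and over the 9241 genes whose mean reached 100 in both lines the Pearson correlation was 0.62. For BL-41 and Namalwa these values were 0.42 (Spearman 0.43) over the members and 0.66 over 9224 genes, and for Namalwa and Jiyoye 0.45 (Spearman 0.51) and 0.60 over 9096 genes. These correlations run across genes, which are not independent replicates, and are a description. Of the 42 members, 5 lay above 0 in all 3 lines (CDC25B, MAD2L1, TTK, BIRC5 and CDCA5), 16 lay below 0 in all 3 and 21 had mixed signs. Signs shared by all 3 lines were not counted over all genes either.

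**Figure D3:**
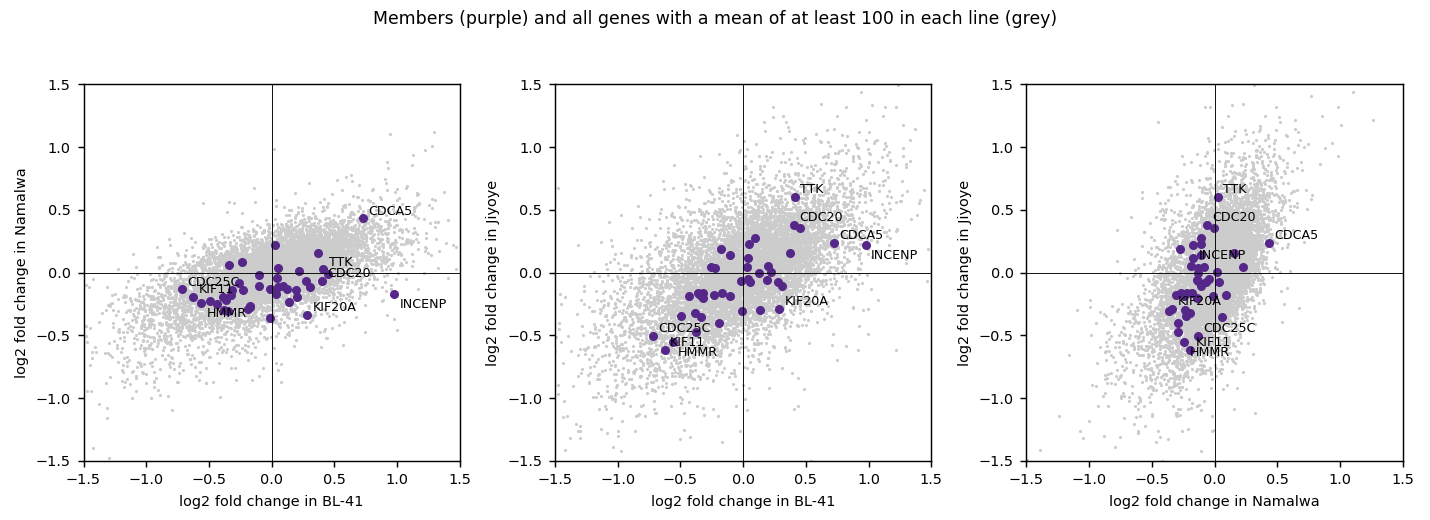
Log2 fold changes of 1 line against another, with the 42 members in purple and other genes whose mean reached 100 in grey, cropped at 1.5 in size. Members run along the diagonal for BL-41 against Jiyoye (Pearson 0.71), and INCENP lies apart at 0.98 in BL-41.

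The promoters of the members that moved in more than 1 line, and of INCENP, whose response differed most between lines, are shown because mitotic genes are known for a shared promoter layout. It places a CHR element close to the start and boxes of the factor NF-Y upstream of it. RefSeq windows of GRCh38.p14 were available for 34 of the 42 members. AURKA, BIRC5, BUB3, FOXM1, RACGAP1, TPX2, TTK and UBE2C had no entry. Each line below gives the 100 bases before the first listed start, 5′ to 3′ on the strand of the gene, and capitals mark the CHR forms TTTGAA and TTTAAA and the NF-Y box CCAAT on either strand. The windows are chr1:43358881-43358980 (plus strand) for CDC20, chr3:172750626-172750725 (plus) for ECT2, chr10:92593030-92593129 (plus) for KIF11, chr5:163460532-163460631 (plus) for HMMR, chr5:138338356-138338455 (minus) for CDC25C, chr11:65084041-65084140 (minus) for CDCA5 and chr11:62123911-62124010 (plus) for INCENP. Each window ends at the base before the annotated gene, and the CDC25C window also lies in FAM53C.
CDC20: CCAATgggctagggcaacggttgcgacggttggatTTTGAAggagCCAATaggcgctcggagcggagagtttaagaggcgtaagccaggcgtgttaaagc
ECT2: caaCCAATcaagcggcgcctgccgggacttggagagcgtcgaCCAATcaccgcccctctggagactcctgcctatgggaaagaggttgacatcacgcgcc
KIF11: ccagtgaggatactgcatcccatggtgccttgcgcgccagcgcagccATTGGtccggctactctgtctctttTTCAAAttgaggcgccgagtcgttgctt
HMMR: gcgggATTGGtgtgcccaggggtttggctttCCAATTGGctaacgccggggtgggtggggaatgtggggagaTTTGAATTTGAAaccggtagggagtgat
CDC25C: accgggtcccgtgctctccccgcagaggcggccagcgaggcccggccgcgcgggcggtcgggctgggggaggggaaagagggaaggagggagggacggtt
CDCA5: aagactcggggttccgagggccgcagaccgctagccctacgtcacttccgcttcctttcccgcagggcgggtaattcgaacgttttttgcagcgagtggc
INCENP: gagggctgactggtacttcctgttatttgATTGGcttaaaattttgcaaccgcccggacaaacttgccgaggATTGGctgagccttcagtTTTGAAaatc

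A CHR form stood in these 100 bases for CDC20, which rose, for KIF11 and HMMR, which fell, and for INCENP, which rose in BL-41. HMMR held a pair of CHR forms directly after each other, 28 and 22 bases before the start. In ECT2 these bases held NF-Y boxes, with a CHR form just upstream of them, 115 bases before the start, and in the CDC25C and CDCA5 windows none of these words. CDC25C has 4 listed starts and ECT2 has 2, and only the first of each is shown. The absence of a word here therefore holds for that start alone. Over the full 250 bases before the start, 24 of the 34 members (70.6%) held TTTGAA or TTTAAA on either strand, against 22.1% of the windows of 27305 genes in the same table. CCAAT was held by 25 members (73.5%) and by 33.0% of all windows, and a CHR form together with CCAAT by 21 members (61.8%) and 7.85% of all windows. TTTAAA reads the same on both strands and was counted once. Matches overlapped in 4 members, a CHR form with CCAAT in CDCA8 and MKI67 and CCAAT with CCAAT on the other strand in HMMR and PTTG1. The CHR form nearest the start began at a median of 30.5 bases before it, over positions from -247 to -10. The forkhead word TGTTTAC was matched in 1 member, CDK1 (2.94%), and in 2.98% of all windows. A match is a description of the letters, not a bound site.

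**Figure D4:**
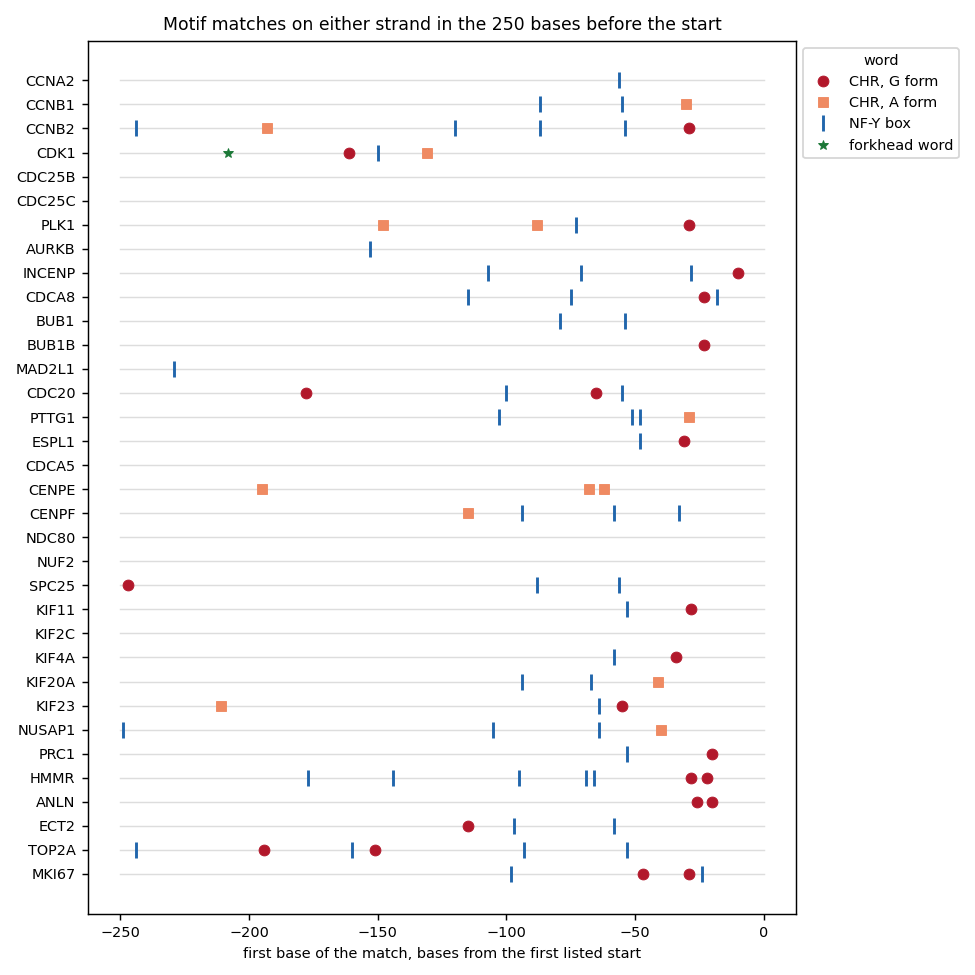
Positions of motif matches on either strand in the 250 bases before the first listed start of the 34 members with a RefSeq window (x axis: first base of the match relative to the start). The G and A forms of CHR are TTTGAA and TTTAAA, the NF-Y box is CCAAT and the forkhead word is TGTTTAC. In members with a CHR match, the match nearest the start began at a median of 30.5 bases before it. Positions of these nearest matches ran from -247 to -10.

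Among the cyclins, CDK1 and the CDC25 phosphatases, CDC25C had the largest change in BL-41 and in Jiyoye, while in Namalwa CDK1 lay farthest from 0 (-0.25) in the authors' deposited table. CDC25C, which removes inhibitory phosphates from CDK1 at mitotic entry, went from 451.8 to 274.6 in BL-41 in the authors' deposited table (log2 fold change -0.72, recovered SE 0.18, adjusted p = 0.000462, DESeq2). In Jiyoye it went from 393.2 to 277.7 (-0.50, SE 0.15, adjusted p = 0.00709, DESeq2), and in Namalwa, where it was lowest, from 224.9 to 204.9 (-0.13, SE 0.18, not called) in the authors' deposited table. FAM53C and a long noncoding RNA overlap the CDC25C gene in RefSeq, and whether counting used strand is not given in the sources used here, so the CDC25C value is uncertain. CDK1, the mitotic kinase itself, fell from 1119 to 828.5 in BL-41 in the authors' deposited table (-0.43, SE 0.13, adjusted p = 0.00451, DESeq2). Its values were 2206 and 1859 in Namalwa (-0.25) and 1511 and 1328 in Jiyoye (-0.19) in the authors' deposited table, neither called. CCNB1, which codes for cyclin B1, moved the other way in BL-41, from 1719 to 2128 in the authors' deposited table (0.31, SE 0.11, adjusted p = 0.0274, DESeq2). The kinase and its main cyclin thus moved apart in that line. CCNB1 stood at 1821 and 1684 in Namalwa (-0.11) and at 2223 and 2061 in Jiyoye (-0.11) in the authors' deposited table, neither called. The other cyclins, CCNA2 and CCNB2, lay between -0.24 and 0.14 over the 3 lines in the authors' deposited table and were not called. CDC25B, which acts earlier, at the centrosome, had log2 fold changes of 0.03 (BL-41), 0.22 (Namalwa) and 0.04 (Jiyoye) in the authors' deposited table and was not called.

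FOXM1, a forkhead factor that activates many of the other members, was not called in any line. Its values in the authors' deposited table were 3299 and 2757 in BL-41 (-0.26, SE 0.12, adjusted p = 0.0887, DESeq2), 3899 and 3678 in Namalwa (-0.08) and 2405 and 2484 in Jiyoye (0.05). ITFG2 and RHNO1 overlap the FOXM1 gene in RefSeq, so the FOXM1 value is uncertain. PLK1, the Polo kinase of spindle assembly, had fold changes of 0.05, -0.11 and 0.23 in BL-41, Namalwa and Jiyoye in the authors' deposited table, with 95% intervals from -0.16 to 0.25, from -0.33 to 0.11 and from -0.03 to 0.48. AURKA, the Aurora kinase of the spindle poles, lay below 0 in each line, at -0.32, -0.18 and -0.16 in the authors' deposited table, and was not called. TPX2, which activates Aurora A and brings it to spindle microtubules, fell in BL-41 from 4587 to 3253 in the authors' deposited table (-0.50, SE 0.11, adjusted p = 9.34e-05, DESeq2). In Jiyoye TPX2 fell from 4129 to 3258 (-0.34, SE 0.12, adjusted p = 0.0383, DESeq2), and in Namalwa it stood at 5042 and 4308 (-0.23, SE 0.10, not called) in the authors' deposited table.

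The chromosomal passenger complex, which corrects faulty attachments and guides cytokinesis, was the group whose members differed most from each other in BL-41. INCENP, its scaffold, rose from 1716 to 3376 in BL-41 in the authors' deposited table, the largest rise of any member (0.98, SE 0.14, adjusted p = 5.43e-10, DESeq2). BIRC5, which codes for survivin, rose there from 1515 to 1962 (0.37, SE 0.11, adjusted p = 0.00512, DESeq2), while AURKB, the kinase of the complex, fell from 818.1 to 642.6 (-0.35, SE 0.13, adjusted p = 0.0331, DESeq2) in the authors' deposited table. CDCA8, the borealin subunit, stood at 2386 and 2362 in the authors' deposited table (-0.01, 95% interval from -0.22 to 0.19). No subunit was called in Namalwa or Jiyoye by DESeq2, where AURKB in Namalwa and INCENP in Jiyoye had an unadjusted p under 0.05. INCENP stood at 2177 and 1935 in Namalwa (-0.17) and at 1518 and 1772 in Jiyoye (0.22) in the authors' deposited table. For INCENP, the fold change in BL-41 exceeded that in Namalwa by 1.15 (SE 0.19, 95% interval from 0.77 to 1.52, adjusted p = 1.15e-06) and that in Jiyoye by 0.75 (SE 0.18, 95% interval from 0.40 to 1.11, adjusted p = 0.00224), by a z test on the difference adjusted over all genes of both lines. Namalwa minus Jiyoye gave -0.39 for INCENP and did not pass (adjusted p = 0.244). Each line was compared on its own, so moderation may differ between lines. The z tests between lines, here and below, do not allow for that.

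In the spindle checkpoint, TTK and BUB1B moved in opposite directions. TTK, the MPS1 kinase that starts checkpoint signalling at kinetochores, rose in Jiyoye from 900.9 to 1369 in the authors' deposited table (0.60, SE 0.14, adjusted p = 0.000167, DESeq2). In BL-41 it rose from 1251 to 1665 (0.41, SE 0.12, adjusted p = 0.00422, DESeq2), and in Namalwa it stood at 1111 and 1132 (0.03, SE 0.11) in the authors' deposited table. TTK in Namalwa lay below TTK in Jiyoye by the test of the difference (-0.58, SE 0.17, adjusted p = 0.0378), while neither BL-41 minus Namalwa (0.39, adjusted p = 0.144) nor BL-41 minus Jiyoye (-0.19, adjusted p = 0.661) passed. BUB1B, which codes for BUBR1 of the mitotic checkpoint complex, fell in BL-41 from 2848 to 2214 in the authors' deposited table (-0.36, SE 0.12, adjusted p = 0.0153, DESeq2) and had -0.22 and -0.16 in Namalwa and Jiyoye. BUB1B-PAK6 and a long noncoding RNA overlap the BUB1B gene in RefSeq, so the BUB1B value is uncertain. BUB1, BUB3 and MAD2L1, the other checkpoint genes, lay between -0.19 and 0.22 over the 3 lines in the authors' deposited table and were not called.

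Among the genes of anaphase and sister chromatid cohesion, CDCA5 and CDC20 rose. CDCA5, which codes for sororin, a protector of cohesin, rose in BL-41 from 1344 to 2220 (0.72, SE 0.11, adjusted p = 7.19e-10, DESeq2) and in Namalwa from 1905 to 2571 (0.43, SE 0.11, adjusted p = 0.00338, DESeq2) in the authors' deposited table. In Jiyoye it stood at 1125 and 1325 in the authors' deposited table (0.24, SE 0.16, not called), and none of the differences between lines passed for CDCA5. NAALADL1 overlaps the CDCA5 gene in RefSeq. CDC20, the activator of the APC/C that the checkpoint holds, rose in BL-41 from 2923 to 3865 in the authors' deposited table (0.40, SE 0.10, adjusted p = 0.000363, DESeq2). It rose in Jiyoye from 1865 to 2432 (0.38, SE 0.13, adjusted p = 0.0248, DESeq2) and stood at 2722 and 2602 in Namalwa (-0.06, SE 0.13) in the authors' deposited table. CDC20 in BL-41 minus Namalwa was 0.47 and did not pass over all genes (adjusted p = 0.0555), but passed when genes whose mean was under 100 in either line were left out (adjusted p = 0.0416). UBE2C, PTTG1 and ESPL1 lay between -0.30 and 0.20 over the 3 lines in the authors' deposited table and were not called.

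Of the 5 kinetochore genes, 2 fell in BL-41 (CENPE and NUF2). These are 40.0% of the group, where 28.7% of all BL-41 genes were called and 40.7% of those whose mean reached 100. The group had a median of -0.32 (BL-41), -0.14 (Namalwa) and -0.20 (Jiyoye). CENPE, the motor that carries chromosomes to the metaphase plate, fell in BL-41 from 1071 to 822.8 in the authors' deposited table (-0.38, SE 0.14, adjusted p = 0.0225, DESeq2). In Jiyoye CENPE went from 1561 to 1127 (-0.47, SE 0.18, adjusted p = 0.0547, DESeq2), which missed the threshold over all genes, and in Namalwa from 1303 to 1062 (-0.30) in the authors' deposited table. NUF2, a subunit of the NDC80 complex that grips microtubule ends, fell in BL-41 from 1335 to 1069 in the authors' deposited table (-0.32, SE 0.12, adjusted p = 0.0271, DESeq2). NDC80 and SPC25, of the same complex, had -0.23 and -0.34 in BL-41 in the authors' deposited table and were not called, the SE of SPC25 being 0.23 at values of 191.1 and 151.1. CENPF, a large kinetochore protein, had 0.04, -0.17 and 0.11 in BL-41, Namalwa and Jiyoye in the authors' deposited table.

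**Figure D5:**
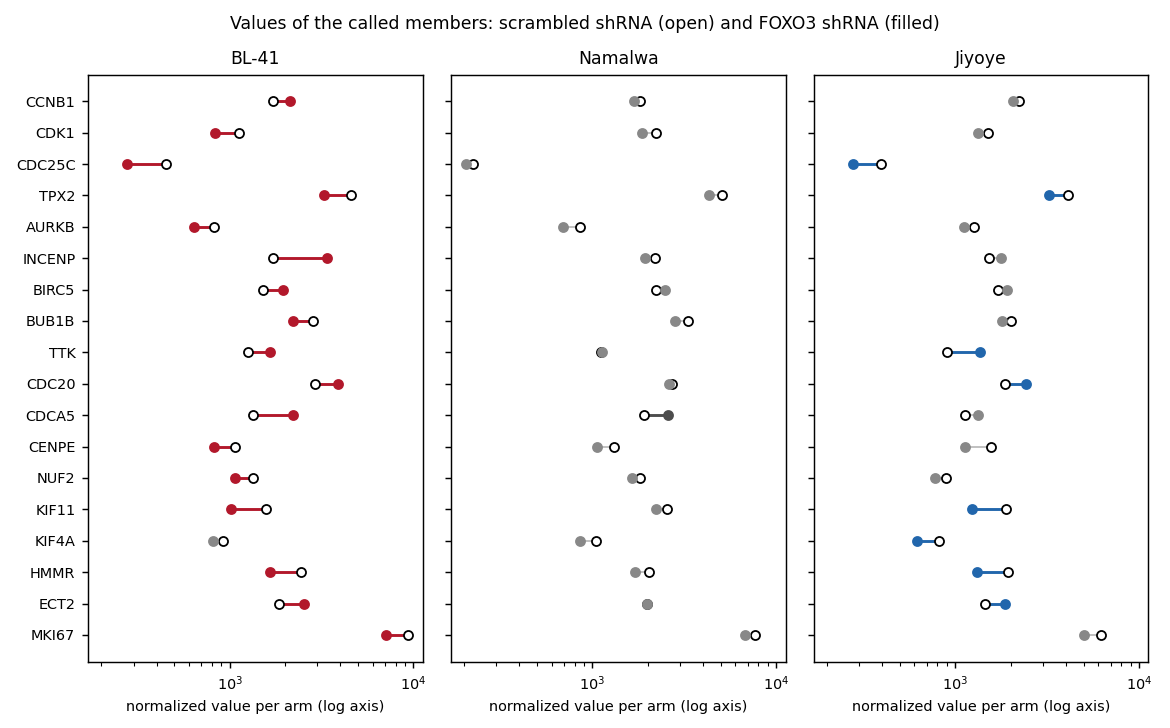
Normalized value per arm (x axis, log scale) of the 18 members called in at least 1 line, with scrambled shRNA as open circles and FOXO3 shRNA as filled circles; coloured lines mark calls in that line and grey circles members not called there. KIF11 and HMMR moved left and TTK, CDC20 and ECT2 moved right in both BL-41 and Jiyoye.

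Of the 8 spindle motors and microtubule binders, those that were called all fell. KIF11, which codes for Eg5, the motor that pushes spindle poles apart, fell in BL-41 from 1570 to 1017 (-0.63, SE 0.14, adjusted p = 0.000114, DESeq2) and in Jiyoye from 1892 to 1234 (-0.62, SE 0.13, adjusted p = 4.78e-05, DESeq2) in the authors' deposited table. In Namalwa KIF11 stood at 2538 and 2219 in the authors' deposited table (-0.19, SE 0.10, not called). HMMR, a hyaluronan receptor that also organizes spindle poles, fell in BL-41 from 2439 to 1650 (-0.56, SE 0.13, adjusted p = 0.000268, DESeq2) and in Jiyoye from 1930 to 1316 (-0.55, SE 0.15, adjusted p = 0.00235, DESeq2) in the authors' deposited table. In the authors' deposited table HMMR stood at 2023 and 1710 in Namalwa (-0.24, SE 0.09, adjusted p = 0.092, DESeq2). HMMR-AS1, an antisense gene, overlaps HMMR, so the HMMR value is uncertain without strand. KIF4A, a chromosome-bound motor, fell in Jiyoye from 819.5 to 621.2 in the authors' deposited table (-0.40, SE 0.15, adjusted p = 0.0456, DESeq2) and had -0.19 in BL-41 and -0.29 in Namalwa.

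KIF20A, a motor of the central spindle, was not called in any line and still differed between lines. In the authors' deposited table KIF20A stood at 1233 and 1501 in BL-41 (0.28), at 1553 and 1229 in Namalwa (-0.34) and at 1146 and 937.2 in Jiyoye (-0.29). BL-41 minus Namalwa was 0.62 for KIF20A (SE 0.19, 95% interval from 0.24 to 1.00, adjusted p = 0.0263) and passed the z test. BL-41 minus Jiyoye was 0.57 for KIF20A, which did not pass over all genes (adjusted p = 0.0544) and passed when genes whose mean was under 100 in either line were left out (adjusted p = 0.0416). CDC23 overlaps the KIF20A gene in RefSeq, so this value is uncertain. KIF2C, KIF23, NUSAP1 and PRC1 lay between -0.27 and 0.27 over the 3 lines in the authors' deposited table and were not called. Over all members, 2 of 42 passed for BL-41 minus Namalwa (INCENP and KIF20A), 1 for BL-41 minus Jiyoye (INCENP) and 1 for Namalwa minus Jiyoye (TTK), where 7.01%, 6.25% and 2.75% of all genes passed. The median SE of these differences over the members was 0.17, 0.18 and 0.17, and of the differences that passed, the smallest in size was that of TTK (-0.58).

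In cytokinesis, ECT2 rose and its partners were not called. ECT2, the exchange factor that activates RhoA at the cleavage furrow, rose in BL-41 from 1861 to 2546 (0.45, SE 0.13, adjusted p = 0.00427, DESeq2) and in Jiyoye from 1451 to 1857 (0.36, SE 0.13, adjusted p = 0.0316, DESeq2) in the authors' deposited table. Namalwa gave 1983 and 1972 for ECT2 in the authors' deposited table (-0.01, 95% interval from -0.21 to 0.20). RACGAP1, which recruits ECT2 to the central spindle, had 0.19, -0.14 and -0.06 and ANLN, the scaffold protein anillin, 0.27, -0.07 and -0.07 in BL-41, Namalwa and Jiyoye in the authors' deposited table. MKI67, which codes for the proliferation marker Ki-67 on the surface of mitotic chromosomes, fell in BL-41 from 9297 to 7107 in the authors' deposited table (-0.39, SE 0.13, adjusted p = 0.0116, DESeq2). It stood at 7709 and 6727 in Namalwa (-0.20, SE 0.27, the largest SE of any member there) and at 6251 and 4998 in Jiyoye (-0.32, adjusted p = 0.0779, DESeq2) in the authors' deposited table. TOP2A, the topoisomerase that untangles sister chromatids, stood at 9740 and 9668 in BL-41 in the authors' deposited table (-0.01). TOP2A went from 11163 to 8690 in Namalwa (-0.36, adjusted p = 0.0807, DESeq2) and from 8466 to 6862 in Jiyoye (-0.30, adjusted p = 0.171, DESeq2) in the authors' deposited table, neither of which was called.

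A list of 104 further mitosis genes, such as condensin, cohesin, centromere and APC/C genes, showed more falls than rises among its calls in each line. In BL-41, 12 of 104 rose, 26 fell and 66 were not called. In Jiyoye 4 of 103 rose, 17 fell and 82 were not called, and in Namalwa 1 of 103 rose, 6 fell and 96 were not called. Over all genes 14.5% rose and 14.2% fell in BL-41, 8.69% and 8.7% in Jiyoye, and 2.6% and 3.81% in Namalwa. Falls thus also outnumbered rises over all genes in Namalwa. The called shares were 36.5%, 20.4% and 6.80% in BL-41, Jiyoye and Namalwa, beside 28.7%, 17.4% and 6.41% of all genes and 40.7%, 25.5% and 9.61% of those whose mean reached 100, as that of 103 of the listed genes did in each line. The medians of the list were -0.06, -0.07 and -0.05, beside 0.02, 0.01 and 0.00 over all genes. In the authors' deposited table KIF18B, a motor that shortens microtubules, rose in all 3 lines, by 1.13 in BL-41 (806.5 to 1770), by 0.35 in Namalwa (1154 to 1475) and by 1.01 in Jiyoye (663.9 to 1338, adjusted p from 1.13e-11 to 0.0351, DESeq2). NCAPG, a condensin subunit, had -0.52, -0.28 and -0.77 in BL-41, Namalwa and Jiyoye in the authors' deposited table and fell in each (adjusted p from 3.95e-08 to 0.0358, DESeq2). In the authors' deposited table CENPI, a centromere protein, also fell in each line, with -0.96, -0.61 and -1.04 (adjusted p from 3.53e-05 to 0.0157, DESeq2). SKA1, a subunit of the SKA complex that joins NDC80 on microtubules, fell in BL-41 (-1.12) and Namalwa (-0.46) and had -0.27 in Jiyoye in the authors' deposited table. SKA2, of the same complex, fell in BL-41 (-0.46) and Jiyoye (-0.74) and had -0.12 in Namalwa in the authors' deposited table. KIF15, a motor that can stand in for KIF11, fell in BL-41 (-0.82) and Jiyoye (-0.76) in the authors' deposited table, as KIF11 did, and had -0.27 in Namalwa. NCAPH2, a subunit of condensin II, rose in BL-41 (0.72) and Jiyoye (0.39) and had 0.25 in Namalwa in the authors' deposited table. CDCA3, an adaptor for protein breakdown at mitotic entry, fell in BL-41 (-0.75) and Namalwa (-0.34) and had -0.04 in Jiyoye in the authors' deposited table. CIT, the citron kinase of the midbody, fell in Jiyoye (-0.82), beside -0.21 in BL-41 and -0.33 in Namalwa, in the authors' deposited table. SPC24, a subunit of the NDC80 complex, fell in Namalwa (-0.54) in the authors' deposited table.

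Genes of DNA replication, which takes place in S phase, before G2 and mitosis, were set beside the members as the nearest programme. Of 41 such genes, 10 rose and 10 fell in BL-41, 3 rose and 1 fell in Namalwa, and 2 rose and 12 fell in Jiyoye. The mean of each of the 41 reached 100, and the called shares of 48.8%, 9.76% and 34.1% in BL-41, Namalwa and Jiyoye stand beside 40.7%, 9.61% and 25.5% of all genes whose mean did so. Their medians were -0.07, 0.15 and -0.26, so in Namalwa the replication genes had a median above 0 and the mitosis and spindle genes one below 0 (-0.14), a difference that was not tested. In the authors' deposited table RRM2, a subunit of ribonucleotide reductase, fell in each line, with -0.94, -0.54 and -1.59 in BL-41, Namalwa and Jiyoye (adjusted p from 9.60e-15 to 0.00601, DESeq2). MCM2, of the replicative helicase, rose in BL-41 (0.79) and Namalwa (0.35) in the authors' deposited table. A further list of 14 genes held the MuvB and DREAM complexes, the pocket proteins and other E2F factors. Of these genes, 2 rose and 4 fell in BL-41, 1 fell in Namalwa, and 1 rose and 5 fell in Jiyoye. These are 42.9%, 7.14% and 42.9% of the list, beside 28.7%, 6.41% and 17.4% of all genes and 40.7%, 9.61% and 25.5% of those whose mean reached 100. E2F5, a repressor E2F, fell in BL-41 (-0.96) and Jiyoye (-0.68) and had -0.21 in Namalwa in the authors' deposited table. RBL2, which codes for the pocket protein p130, fell in Namalwa (-0.54) and Jiyoye (-0.49) and had -0.32 in BL-41 in the authors' deposited table. Among 12 cell cycle regulators linked to FOXO factors, 1 rose and 2 fell in BL-41, 1 fell in Namalwa, and 2 rose and 1 fell in Jiyoye. That is 3, 1 and 3 of 12 called, where 28.7%, 6.41% and 17.4% of all genes were. All 12 of these lay below 0 in Namalwa, with a median of -0.08, where 50.3% of all genes did, while 5 did so in BL-41 and 6 in Jiyoye. This list and the preceding one share RBL2, which is the 1 fall of each in Namalwa and a fall of each in Jiyoye.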

How the data were processed

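Messenger RNA of 18 libraries in 6 groups was analysed from 3 deposited tables, 1 per line. Libraries used oligo-dT capture of mRNA, per the labels. The authors filtered reads with SOAPnuke, mapped them to hg38 with Bowtie2, took gene levels from RSEM and compared arms with DESeq2, per the series' design text, which gives no versions. The deposited signal value per arm is normalized. Its log2 ratio equals the deposited log2 fold change (largest difference 1.39e-14), so moderation of the fold change is also in the value. That equality does not itself show moderation. The deposited p-value and adjusted p come from the authors' DESeq2 test, and Benjamini-Hochberg adjustment of the former gave the latter (largest difference 3.56e-15). Depth per library is not in the columns used, so no interval for counting error is given and the planned test on counts could not be run.

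Computed here were the recovered SE (fold change over the normal quantile of its p), 95% normal intervals, a z test on differences of fold changes with Benjamini-Hochberg adjustment over all genes of both lines, levels per kilobase from each table's gene lengths, list counts and promoter words. The z test was tried on simulated fold changes without moderation, so the trial does not show how it behaves on moderated ones. The members and lists were chosen with earlier results of these data known. Any member could be named, with full values for called members, as could up to 4 genes of smallest adjusted p per further list and line. Markers were named where 5 or fewer were called. Alternatives were a threshold of 0.01, a log2 size of at least 0.5, genes with a mean of at least 100, and recentring. Other RefSeq genes overlap 20 of the 42 members, and strand use in counting is not given in the sources used here. Work was done in Python 3.11.15 with scipy 1.17.1, pandas 2.3.3, numpy 2.4.6 and matplotlib 3.10.9.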

Additional observations from a re-analysis of the deposited data

Results flagged for a closer look

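The response to FOXO3 shRNA differed between lines, by the z test on the difference of log2 fold changes adjusted over all genes of both lines, for 3 members. INCENP was higher in BL-41 than in Namalwa by 1.15 and than in Jiyoye by 0.75, KIF20A was higher in BL-41 than in Namalwa by 0.62, and TTK in Namalwa minus Jiyoye was -0.58. The targeted gene FOXO3 in Namalwa minus Jiyoye was -0.80.

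Of the further genes named, BL-41 minus Namalwa was 0.78 for KIF18B, -0.66 for SKA1, 0.47 for NCAPH2 and -0.75 for E2F5. BL-41 minus Jiyoye was -0.85 for SKA1, 0.60 for CIT and -0.71 for CDCA3. Namalwa minus Jiyoye was -0.66 for KIF18B, 0.63 for SKA2 and 1.05 for RRM2.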

How the results depend on the processing

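With a threshold of 0.01 the called members went from 17 to 11 in BL-41 (10 to 5 falling) and from 8 to 4 in Jiyoye (3 to 1 rising, 5 to 3 falling), and differing members from 2 to 1 for BL-41 minus Namalwa and from 1 to 0 for Namalwa minus Jiyoye. When a size of 0.5 on the log2 scale was also asked for, 5 remained in BL-41 (2 rising, 3 falling), 4 in Jiyoye (1 rising, 3 falling) and 0 in Namalwa. When genes whose mean was under 100 were left out, CENPE was added in Jiyoye, KIF20A was added for BL-41 minus Jiyoye, making 2, and CDC20 for BL-41 minus Namalwa. Recentring changed no call among the members. No direction was reversed. With any listed start 25 members (73.5%) held a CHR form and 27 (79.4%) held CCAAT, against 25.5% and 37.0% of all genes with a window. This alternative was chosen after seeing the data. Leaving out a library was not run, since the tables give 1 value per arm. No paired analysis was possible because the columns carry no value per library. Moderation understates changes of genes with few reads.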
